A study of Mus musculus with 6 samples.

Results

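Heat shock chaperones were followed in the kidneys of 6 male mice aged 10 weeks. The set holds 10 genes, all of which were measured, at 25 of the 45037 probe sets compared on the arrays. It was chosen by gene symbol, as every probe set annotated with a single symbol among Hspa1a, Hspa1b, Hspa8, Dnajb1, Dnaja1, Hsph1, Hsp90aa1, Hspb1, Hspd1 and Hspe1. The symbols were listed with earlier results of these data known. Megalin, encoded by Lrp2, is the endocytic receptor of the proximal tubule, and the study asked whether its released intracellular domain (ICD) alters tubular function. The ICD group was 3 mice, heterozygous for the domain per the study's design text, and the wild type group (WT) was 3 littermates. The labels of ICD 2 and ICD 3 name the intracellular domain, and that of ICD 1 adds the word soluble. The strain, the construct and the cells that express the domain are not given in the sources used here. Each animal is 1 array of whole kidney RNA, and the replicates are separate animals.

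Chaperones of the Hsp70 class bind unfolded protein and use ATP to fold or release it. J proteins such as Dnaja1 and Dnajb1 deliver clients to Hsp70 and start its ATP cycle, and Hsph1 resets the cycle by exchanging the nucleotide. Hsp90 takes up clients at a later stage of folding, small chaperones such as Hspb1 hold them without ATP, and Hspd1 with its lid Hspe1 forms the folding chamber of the mitochondrial matrix. Heat, ischaemia and toxic injury of the kidney induce many of these genes through the transcription factor HSF1, which binds inverted repeats of the letters GAA, the heat shock elements.

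These elements were looked for in RefSeq promoter windows of GRCm38.p6, which run from 250 bases before to 50 bases after a transcript start. Windows were listed for 8 of the 10 members, not for Hspa8 and Hsp90aa1. The pairs GAANNTTC and TTCNNGAA were searched on both strands, on which each reads the same. At least 1 pair lay in 8 of the 13 member windows, from 7 genes, and in 15.1% of all 32851 windows. The triples GAANNTTCNNGAA and TTCNNGAANNTTC, which are reverse complements of each other and contain both pairs, lay in 4 of the 13 member windows, from Hspd1, Hspe1 and Hsph1, and in 0.603% of all windows. Neither pair was in the 2 Dnajb1 windows. A match describes letters and does not show binding. The stretches below show pairs that lie before the start. The Hsph1 triple lies after the start and is not shown, only a separate Hsph1 pair. The sequences run 5′ to 3′ on the gene's strand, with matched letters in capitals.
Hspa1b, chr17:34959295-34959382, minus strand: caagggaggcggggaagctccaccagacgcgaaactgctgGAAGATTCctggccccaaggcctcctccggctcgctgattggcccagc
Dnaja1, chr4:40722333-40722362, plus strand: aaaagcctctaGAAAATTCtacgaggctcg
Hsph1, chr5:149636351-149636380, minus strand: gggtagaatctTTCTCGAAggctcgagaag
Hspb1, chr5:135887762-135887869, plus strand: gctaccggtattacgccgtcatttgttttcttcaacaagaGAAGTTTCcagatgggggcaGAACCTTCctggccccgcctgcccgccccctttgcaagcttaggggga
Hspe1, chr1:55088053-55088082, plus strand: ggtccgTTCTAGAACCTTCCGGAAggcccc
The Hspa1a window had the same letters as Hspa1b at 296 of 300 positions, and the stretch shown is identical in both. Hspd1 and Hspe1 start close together on opposite strands, so that the stretch shown for Hspe1 lies before the transcript starts of both windows, although inside the annotated span of Hspd1.

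No chaperone passed the test of the genotype difference. In limma's moderated test, 0 of the 25 probe sets reached an adjusted p under 0.05, which was also reached by 0% of all probe sets, and their adjusted p lay between 0.6 and 0.997. At an unadjusted p under 0.05 there were 3 of 25, against 5.86% of all probe sets. Of these 3, an Hspa8 and a Dnajb1 probe set were higher in ICD kidneys (2 of 25, against 3.61% of all probe sets) and an Hspb1 probe set was lower. The difference was below 0 at 22 of the 25 probe sets, and at 52.8% of all probe sets; probe sets of a gene share its RNA and are not separate evidence. With each gene read at its brightest probe set (highest mean over the 6 arrays), 9 of the 10 genes were lower in ICD kidneys, as were 56.1% of all genes. The median difference of the 10 was -0.082 on the log2 scale and that of all genes -0.012. Without ICD 1 the median of the 10 was 0.0093, without ICD 3 it was -0.22, and without WT 1 and WT 3 in turn it was -0.039 and -0.16.

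**Figure D1:**
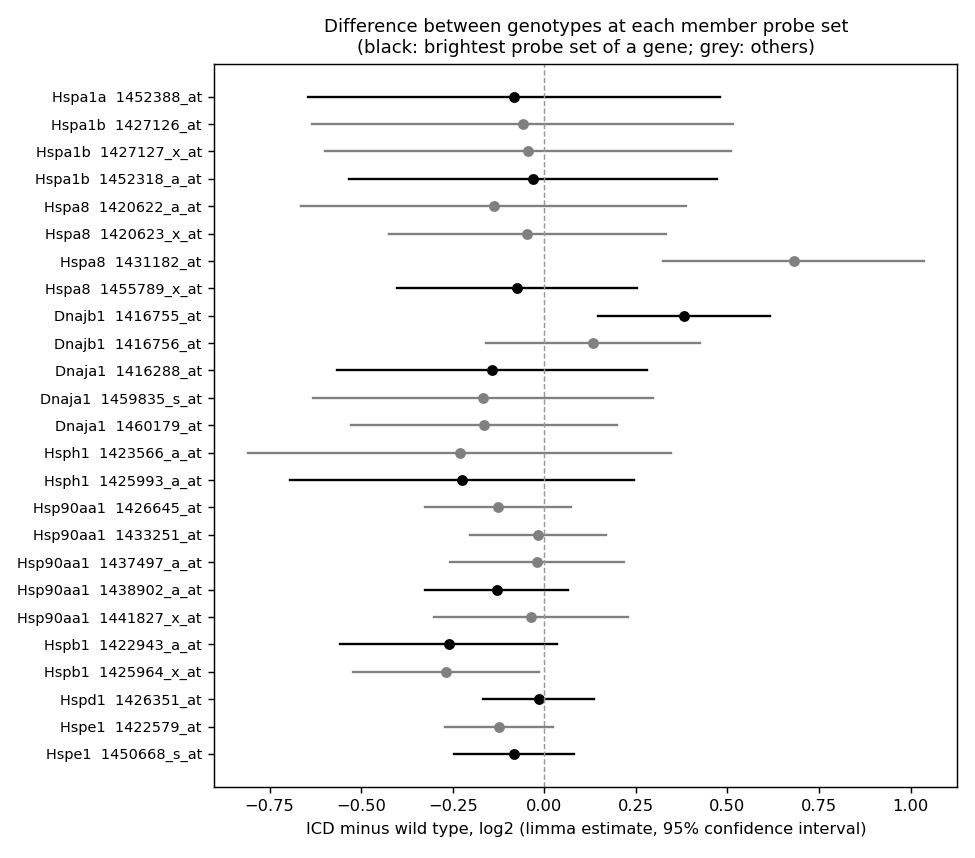
The plot shows the difference ICD minus wild type (log2, limma estimate with 95% confidence interval, 3 animals per group) at each of the 25 chaperone probe sets, in black for the brightest of a gene. Intervals span 0 at 22 probe sets, and Hspa8 1431182_at stands farthest from 0 at 0.68.

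ICD 1 had the lowest value of all 6 arrays at 17 of 25 chaperone probe sets, and at 7 of the 10 brightest ones, where it was lowest for 17.5% of all genes. The array labelled WT 3 was among the lowest 2 at 18 probe sets, and the share of all probe sets for which this held is not given here. The median of the 10 genes, each taken relative to its mean over the 6 arrays, was -0.40 on ICD 1 and -0.16 on WT 3. It was 0.052 and 0.16 on ICD 2 and ICD 3, and 0.17 and 0.092 on WT 1 and WT 2. The standard deviation (SD) within genotypes, pooled over both groups, was above the 90th percentile of all probe sets at 15 of the 25. At the brightest probe set this held for 6 of the 10 genes (9.28% of all genes). The members were chosen with earlier results of these data known, so the counts in this paragraph are not independent of that choice. Probe sets of the same gene are again not separate evidence.

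**Figure D2:**
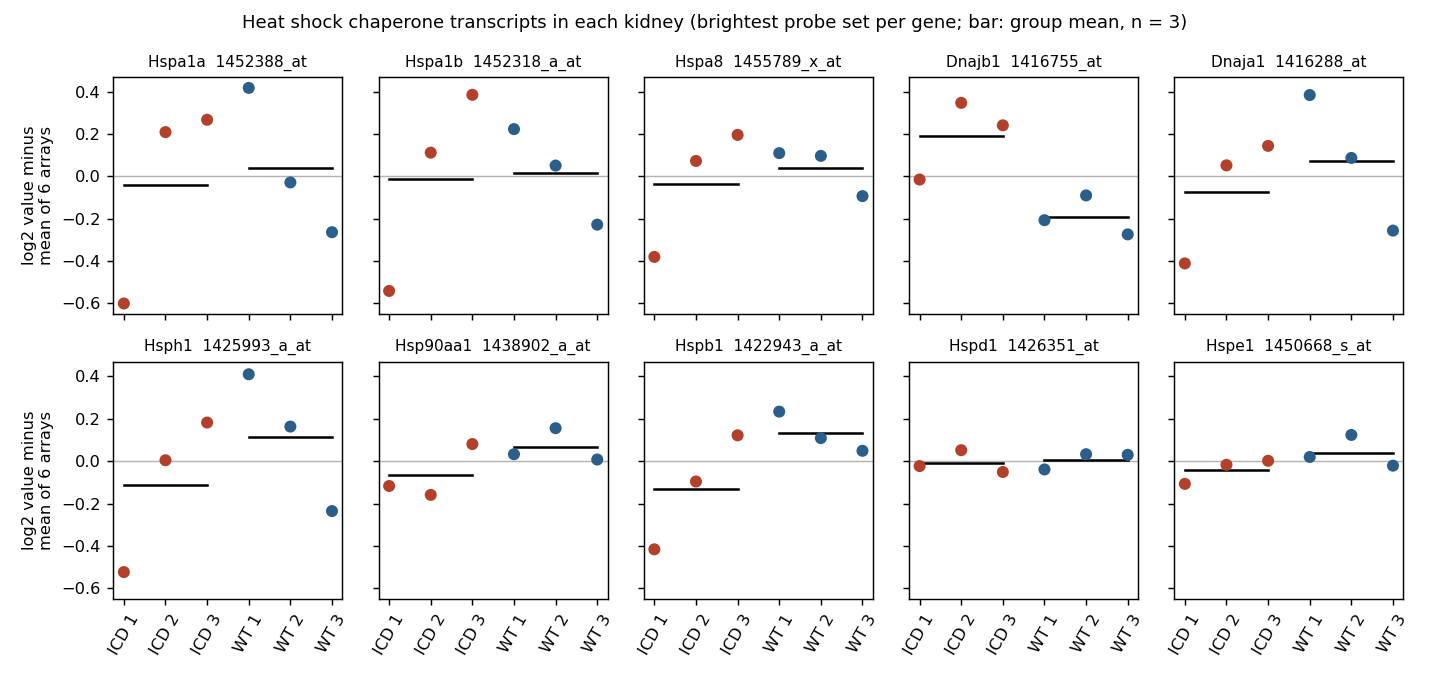
Each panel plots 1 gene, with the log2 value of each kidney relative to the mean of the 6 arrays on the vertical axis and the animals on the horizontal axis (red ICD, blue wild type, black bars the group means). ICD 1 and WT 3 lie low for Hspa1a, Hspa1b, Hspa8, Dnaja1 and Hsph1, whereas the 6 points of Hspd1 span 0.10.

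Hspa1a and Hspa1b encode the stress-inducible Hsp70 and lie close together on chromosome 17. At 1452388_at Hspa1a read 8.54, 9.35 and 9.41 in ICD 1 to 3, and 9.56, 9.11 and 8.88 in WT 1 to 3 (log2). The groups overlapped over most of their range, and the highest animal, WT 1, was 2.02-fold above the lowest, ICD 1. The group means were 9.10 ± 0.48 (SD, n = 3) in ICD and 9.18 ± 0.35 in WT kidneys, a difference of -0.083 (95% confidence interval -0.65 to 0.48). Hspa1b at 1452318_a_at read 10.78, 11.44 and 11.71 in ICD and 11.55, 11.38 and 11.10 in WT kidneys. Both the lowest and the highest animal were ICD mice, and the difference was -0.030 (interval -0.53 to 0.47). The other Hspa1b probe sets, 1427126_at and 1427127_x_at, differed by -0.059 and -0.045. Near-identical copies may share probe signal, so Hspa1a and Hspa1b cannot be separated with certainty here.

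All 4 of these probe sets turned positive without ICD 1, with differences of 0.20 to 0.24, and were -0.22 to -0.24 without ICD 3. Their pooled SD within genotypes of 0.37 to 0.43 lay at or above the 98.8th percentile of all probe sets. Each of their confidence intervals reached at least from -0.53 to 0.47 on the log2 scale.

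Hspa8, the constitutive Hsp70 of the cytosol, was measured by 4 probe sets that disagreed. The brightest, 1455789_x_at, read 13.50, 13.95 and 14.08 in ICD and 13.99, 13.98 and 13.79 in WT kidneys, with ICD 1 lowest. It differed by -0.075 (interval -0.40 to 0.25). 1420623_x_at and 1420622_a_at likewise had ICD 1 lowest and WT 3 next, and differed by -0.046 and -0.14. Without ICD 1 these 3 probe sets differed by 0.096 to 0.12.

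The dimmer 1431182_at went another way. It read 8.11, 8.48 and 8.53 in ICD kidneys and 7.90, 7.80 and 7.38 in WT kidneys, so that all 3 ICD animals lay above all 3 WT animals. Groups apart in that direction were measured for 2 of the 25 chaperone probe sets and 5.44% of all probe sets. The difference was 0.68 ± 0.16 (SE; interval 0.32 to 1.04; limma unadjusted p = 0.00211, adjusted p = 0.6), and 0.52 to 0.81 without any 1 animal. Within the ICD group its order was that of the brightest probe set, with ICD 1 lowest, and within the WT group too WT 1 was highest and WT 3 lowest. Taken on each array against the mean of the other 3 Hspa8 probe sets, 1431182_at stood at -4.78, -4.92 and -5.02 in ICD and -5.63, -5.67 and -5.72 in WT kidneys. This relative level was 0.77 higher in ICD kidneys (exact 2-sided permutation p = 0.1, the smallest that 3 against 3 animals can give), and 0.71 to 0.82 higher without any 1 animal. The comparison was chosen after the values were seen. Only 14 of the 9010 genes with several probe sets (0.155%) had a probe set as far from the rest of its gene, and the median over genes was 0.10. Which Hspa8 transcripts the probes of 1431182_at detect is not given in the sources used here.

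**Figure D3:**
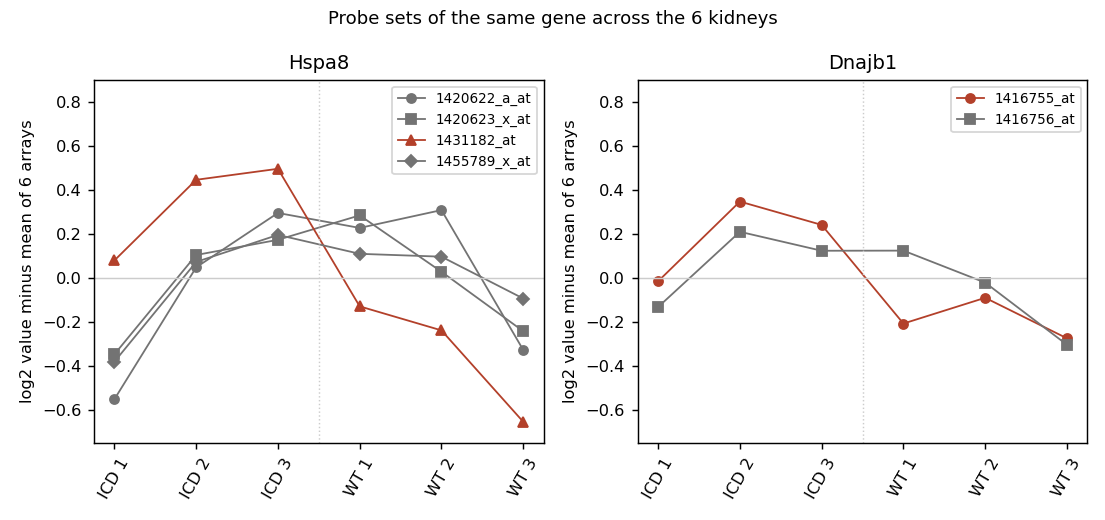
The panels plot the probe sets of Hspa8 and Dnajb1 in each kidney, as the log2 value relative to the mean of that probe set over 6 arrays; lines join values of a probe set and carry no order between animals. The red probe sets, 1431182_at and 1416755_at, have all ICD kidneys above all wild type kidneys, while the grey probe sets overlap between genotypes and are low on ICD 1 and WT 3.

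Dnajb1, the J protein usually induced along with Hspa1b, was the 1 gene of the 10 whose brightest probe set was higher in ICD kidneys. At 1416755_at it read 10.32, 10.68 and 10.57 in ICD and 10.13, 10.24 and 10.06 in WT kidneys. The groups did not overlap, with ICD 1 the lowest of the ICD and WT 2 the highest of the WT animals. The difference was 0.38 ± 0.10 (SE; interval 0.15 to 0.62; limma unadjusted p = 0.00556, adjusted p = 0.714), and 0.30 to 0.48 without any 1 animal. The second probe set, 1416756_at, read 9.25, 9.59 and 9.51 in ICD and 9.51, 9.36 and 9.08 in WT kidneys, with overlap. It differed by 0.13 (interval -0.16 to 0.43), by 0.016 without WT 3 and by 0.23 without ICD 1. Relative to 1416756_at, 1416755_at was 0.25 higher in ICD kidneys (exact 2-sided permutation p = 0.1, the smallest possible), and 0.14 without WT 1. A disagreement of that size was found for 9.25% of genes with several probe sets. The Dnajb1 comparison too was chosen after the values were seen. The same permutation p was reached for Hsp90aa1 1433251_at (0.062) and 1438902_a_at (-0.080), each taken against the mean of its other probe sets.

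Dnaja1, the J protein that serves Hspa8 in folding and in import into mitochondria, read 12.18, 12.64 and 12.74 in ICD and 12.98, 12.68 and 12.34 in WT kidneys at 1416288_at. The difference was -0.14 (interval -0.57 to 0.28), -0.31 without WT 3 and 0.026 without ICD 1. Its other probe sets, 1459835_s_at and 1460179_at, differed by -0.17 and -0.16, and all 3 had ICD 1 lowest and WT 3 next.

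Hsph1, the Hsp110 exchange factor, read 10.99, 11.52 and 11.70 in ICD and 11.92, 11.68 and 11.28 in WT kidneys at 1425993_a_at. Again ICD 1 and WT 3 were the lowest animals, and WT 1 was 1.91-fold above ICD 1. The difference was -0.22 (interval -0.69 to 0.24), and it was -0.019 without ICD 1 and -0.40 without WT 3. 1423566_a_at differed by -0.23 and had the largest pooled SD within genotypes of the 25, 0.43.

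Hsp90aa1, the inducible Hsp90 of the cytosol, varied less. At 1438902_a_at it read 13.05, 13.01 and 13.25 in ICD and 13.20, 13.33 and 13.18 in WT kidneys. ICD 1 and ICD 2 lay below all 3 WT animals and ICD 3 among them, and the difference was -0.13 (interval -0.33 to 0.065), or -0.20 without ICD 3. The bright probe sets 1426645_at and 1437497_a_at differed by -0.13 and -0.021. The dim 1433251_at and 1441827_x_at, the only 2 of the 25 below the median signal of all probe sets, differed by -0.017 and -0.037.

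Hspb1, the small chaperone that binds actin as well as unfolded protein, was lower in ICD kidneys by a like amount at both probe sets. At 1422943_a_at it read 10.00, 10.32 and 10.53 in ICD and 10.65, 10.52 and 10.46 in WT kidneys. The lowest animals were ICD 1 and ICD 2, while ICD 3 lay within the WT range. The difference was -0.26 (interval -0.56 to 0.035), -0.12 without ICD 1 and -0.39 without ICD 3. At 1425964_x_at it was -0.27 (interval -0.52 to -0.013; limma unadjusted p = 0.0414, adjusted p = 0.84), and the groups overlapped there as well. This was the 1 of 25 probe sets lower at an unadjusted p under 0.05, against 2.26% of all probe sets. Without ICD 1 it differed by -0.16.

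The mitochondrial pair stayed nearly level. Hspd1, the chaperonin Hsp60, read 13.33, 13.41 and 13.31 in ICD and 13.32, 13.39 and 13.39 in WT kidneys, and its highest animal was 1.07-fold above its lowest. The difference was -0.015 (interval -0.17 to 0.14), and its pooled SD of 0.047 lay at the 8.09th percentile of all probe sets. Hspe1, the Hsp10 lid, read 12.69, 12.78 and 12.80 in ICD and 12.82, 12.92 and 12.78 in WT kidneys at 1450668_s_at, a difference of -0.082 (interval -0.25 to 0.082). At the dimmer 1422579_at it read 9.57, 9.66 and 9.64 in ICD and 9.71, 9.76 and 9.77 in WT kidneys. There all ICD animals lay below all WT animals, as for 1 of the 25 chaperone probe sets and 5.05% of all probe sets. That difference was -0.12 (interval -0.27 to 0.025; limma unadjusted p = 0.0912, adjusted p = 0.896).

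The members were then set against Hspa1b over the 6 animals, at the brightest probe set per gene, as 9 relations with exact 2-sided permutation tests over 720 pairings. The Hspa8 relation therefore leaves out 1431182_at, the probe set that disagreed with the others of that gene. Hspa8 followed Hspa1b closely (Pearson r = 0.97, exact p = 0.00278, adjusted p = 0.025 over the 9; Spearman rho = 0.94, exact p = 0.0167, adjusted p = 0.075). Hspa1a had r = 0.95 (exact p = 0.00556, adjusted p = 0.025; rho = 0.94, adjusted p = 0.075). This relation may be fixed in part, as near-identical copies may share probe signal, and is not evidence that separate genes varied together. Dnaja1 and Hsph1 had r = 0.90 and 0.91 (both exact p = 0.0139, adjusted p = 0.0312), and rho = 0.89 for both (exact p = 0.0333, adjusted p = 0.075). Hspb1 reached r = 0.80 (exact p = 0.0556, adjusted p = 0.1; rho = 0.77, exact p = 0.103, adjusted p = 0.185). No rank correlation passed after adjustment.

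The values farthest from the Hspa1b median were those of ICD 1 and WT 3. Without both, r was 0.91 for Hspa8, 0.63 for Hspa1a, 0.35 for Dnaja1, 0.33 for Hsph1 and 0.38 for Hspb1, over 4 animals. The relations of Hspa1a, Dnaja1 and Hsph1 therefore rest in large part on those 2 animals. For Dnajb1 r was 0.37, for Hsp90aa1 0.45, for Hspe1 0.58 and for Hspd1 -0.21 (exact p = 0.489, 0.361, 0.224 and 0.676; adjusted p = 0.55, 0.464, 0.335 and 0.676). Their rho was 0.31, 0.37, 0.60 and -0.43 in the same order (exact p = 0.564, 0.497, 0.242 and 0.419; adjusted p = 0.564, 0.559, 0.362 and 0.539). With each value taken from its genotype's mean, r with Hspa1b was 0.77 for Dnajb1, 0.98 for Hspb1 and 0.98 for Hspa8, given as a description without a test. It was 0.95 for Hspa1a, 0.92 for Dnaja1, 0.96 for Hsph1, 0.53 for Hsp90aa1, 0.69 for Hspe1 and -0.22 for Hspd1. Without ICD 1 alone, the r of Hspb1 with Hspa1b, not taken from genotype means, was 0.34. All relations share the same 6 arrays and their normalization, and no batch is named in the labels.

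**Figure D4:**
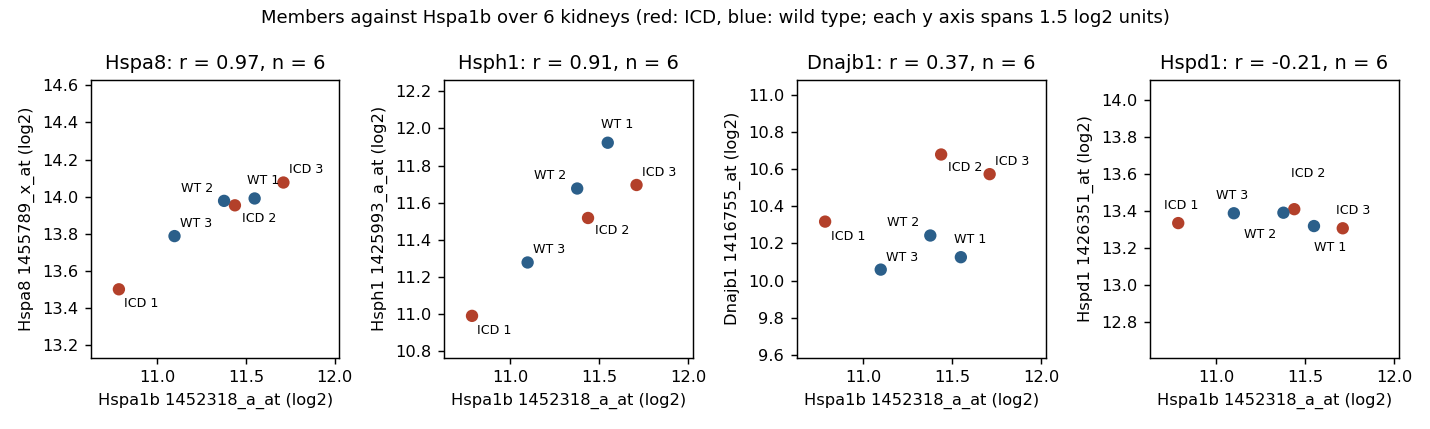
Each point is 1 kidney, with Hspa1b (log2) on the horizontal and another member (log2) on the vertical axis, each vertical axis spanning 1.5 log2 units. Hspa8 and Hsph1 rise with Hspa1b from ICD 1 and WT 3 upward, Dnajb1 runs in separate ICD and wild type bands, and Hspd1 is flat.

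The wider chaperone network was read from a list of 60 genes, 53 of them measured by a probe set with a single symbol. None passed limma's adjusted threshold in either direction, the smallest adjusted p being 0.692. At an unadjusted p under 0.05, 1 gene was higher and 1 lower, where 1.74% and 2.2% of all genes were, and the median difference was -0.014. Hsf2, an HSF1 relative, read 6.23, 6.18 and 6.05 in ICD and 5.88, 5.89 and 5.86 in WT kidneys, without overlap (0.28, interval 0.11 to 0.44, unadjusted p = 0.00446, adjusted p = 0.692). The Hsf2 probe set was dim, its mean of 6.02 lying below the median of all probe sets, 6.64. Dnajb2, a J protein linked to the proteasome, differed by -0.20 (interval -0.38 to -0.010, unadjusted p = 0.041, adjusted p = 0.84).

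Of the 53 network genes, 21 (39.6%) had their lowest value on ICD 1, against 17.5% of all genes. That list, like the others, was drawn up with earlier results of these data known. A pooled SD above the 90th percentile was found for 6 of them (11.3%), near the 9.28% of all genes. The following genes were named after their values were seen. Dnaja4, a J protein, read 8.63, 9.10 and 9.54 in ICD and 9.57, 9.42 and 8.90 in WT kidneys. Stip1, which bridges Hsp70 and Hsp90, read 8.86, 9.12 and 9.44 in ICD and 9.51, 9.41 and 9.10 in WT kidneys. Both had the lowest level on ICD 1 and overlapping groups, with WT 3 second lowest. Chordc1, an Hsp90 co-chaperone, read 9.38, 9.65 and 9.79 in ICD and 10.11, 9.84 and 9.49 in WT kidneys, in the same order at the low end. The other network genes above the 90th percentile of pooled SD had other orders. Clpx was lowest on WT 1 (10.49) and highest on WT 3 (11.16). Fkbp5 was lowest on ICD 2 (10.00) and Serpinh1 on WT 3 (10.30). The 8 subunits of the cytosolic chaperonin TRiC lay between the 2.53rd and the 28.7th percentile of pooled SD, and 5 of them were higher and 3 lower in ICD kidneys.

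Taken as a list mean, chaperones of the endoplasmic reticulum had another order of animals than the Hsp70 genes, which need not hold for each gene. Of 15 genes 14 were lower in ICD kidneys, against 56.1% of all genes, with a median of -0.15, and none passed the adjusted threshold. At an unadjusted p under 0.05 there was 1 of 15 lower, against 2.2% of all genes. It was Hsp90b1, the Hsp90 of that compartment, at -0.24 (interval -0.48 to -0.012, adjusted p = 0.84). The mean of the list relative to the 6 arrays was highest on WT 1 (0.24) and lowest on ICD 2 (-0.14), with -0.12 on WT 3 and -0.094 on ICD 1. Immediate early genes, which respond to handling within minutes, were higher for 10 of 16 (median 0.017), with none past the adjusted threshold. Their mean was highest on ICD 2 (0.17) and lowest on ICD 1 (-0.074). Among them 1 of 16, Jun, a subunit of AP-1, was higher at an unadjusted p under 0.05, against 1.74% of all genes (0.26, interval 0.00038 to 0.53, adjusted p = 0.851).

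Genes other than the members, those of the lists above included, were ranked by their likeness to Hspa1a among 1169 bright genes. Hspa1a was the member with the largest SD over the 6 arrays, and the 1169 had at least 0.5 of its SD. The closest were Nat8f5, an N-acetyltransferase relative (r = 0.98), the histone gene H2aw (0.98), Cdc42ep3, an effector of Cdc42 (0.96), Mpped2 (0.95) and Cenpj, a centriole protein (0.95). These are descriptions over 6 arrays, picked as the highest of many. Each had ICD 1 lowest, as Hspa1a had, and their differences between genotypes lay between -0.15 and 0.016. Both traits follow in large part from picking genes for their likeness to Hspa1a over the same arrays.

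As to the arrays, the labels could be checked only in part. Lrp2 read 12.25 to 12.37 in ICD kidneys and 13.01, 12.97 and 12.13 in WT 1 to 3 at 1427133_s_at, and 12.77 to 12.93 on all arrays at 1452320_at. The dimmer Lrp2 probe set 1445901_at read 6.83 to 7.21 in ICD and 6.62 to 7.23 in WT kidneys. The part of Lrp2 carried by the introduced allele is not given in the sources used here. Markers of the proximal tubule were higher in ICD kidneys for 6 of 10, with a list mean of 0.050 to 0.20 on ICD arrays and 0.22, 0.055 and -0.62 on WT 1 to 3. The low mean on WT 3 came from a pair of transporters, singled out after the values were seen. Slc5a12, a lactate transporter, read 4.12 on WT 3 and 9.27 to 10.47 on the other arrays, and Slc5a2, the main renal glucose transporter, read 10.40 and 11.29 to 11.96. The other 8 markers lay between -0.20 and 0.077 of their means on WT 3, and their list mean was -0.035 there and -0.032 on ICD 1. Podocyte markers were higher for 4 of 4, with list means of 0.13 to 0.26 on ICD and -0.34 to -0.023 on WT arrays and an unadjusted p under 0.05 for all 4 (Wt1, Podxl, Synpo and Nphs1; smallest adjusted p = 0.643), against 1.74% of all genes, and endothelial markers for 5 of 5 (-0.049 to 0.18 and -0.33 to 0.26). The list mean of immune markers lay between -0.097 and 0.18 on all arrays and that of muscle markers between -0.042 and 0.079. Single markers ranged wider. The mean of the 2 adipose markers measured ranged from -0.67 on WT 1 to 0.43 on ICD 1. List means for the thick ascending limb lay between -0.11 and 0.074, and for the distal tubule and collecting duct between -0.12 and 0.073. Those for blood lay between -0.22 and 0.18 and for the adrenal gland between -0.085 and 0.044. Lower at an unadjusted p under 0.05 (2.2% of all genes) were 2 markers, Avpr2 of the collecting duct (-0.23, unadjusted p = 0.00694, adjusted p = 0.714) and Alas2 of red cells (-0.39, unadjusted p = 0.0268, adjusted p = 0.8), both without overlap. The part of these cell types in the chaperone values was not tested. In whole kidney RNA, fewer cells of a type and less RNA per cell cannot be told apart.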

How the data were processed

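Total kidney RNA of 6 mice was hybridised as biotin-labelled cRNA to Affymetrix arrays, per the labels' protocols. The submitters' processing notes name RMA for the deposited log2 values. That method subtracts background, equalises the arrays' distributions and summarises probes by median polish. Differences of dim probe sets can be compressed in such values. Its version and the chip definition are not given in the sources used here. Values ran from 3.11 to 15.11 and no 2 arrays were identical. Their number, 3 against 3, limits the precision.

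Of 45101 rows, 64 controls were left out. The platform annotation gave 1 symbol for 34945 probe sets, several for 932 and none for 9160. Of the first, 34741 were found by Entrez identifier in the RefSeq table of GRCm38.p6, and 0 symbols changed. Groups came from the sample titles. The genotype difference was fitted in R 4.3.3 by limma 3.58.1 (lmFit, then default eBayes, no other term, 2-sided), with Benjamini-Hochberg adjustment over 45037 probe sets, and the fit was tested on simulated data. A gene is read at the probe set with the highest mean. Named by rule were all member probe sets, genes of the network, endoplasmic reticulum and immediate early lists at unadjusted p under 0.05, Lrp2, and the 5 genes most like the most variable member. Members and lists were chosen with earlier results of these data known. Alternatives were median centring, repeated quantile normalization, bright probe sets only, a trended robust prior, array weights, the replicate number as a block, leaving out each animal, and other probe set choices. Scanner files were not used here.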

Additional observations from a re-analysis of the deposited data

How the results depend on the processing

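No chaperone probe set passed limma's adjusted threshold under any alternative, the smallest adjusted p being 0.435, and no network, endoplasmic reticulum or immediate early gene did. Probe sets below the median signal, such as that of Hsf2, were not in the alternative with bright probe sets only. Over all probe sets, 0 passed, and 1 with a trended and robust prior or without ICD 1, ICD 2 or WT 3 (range 0 to 1 without an animal). Chaperone probe sets at an unadjusted p under 0.05 numbered 3, and 2 to 5 without an animal, 5 without ICD 3 or WT 3. Hspa8 1431182_at and Dnajb1 1416755_at were among them each time. The median over the 10 genes lay between -0.13 and -0.075 under other normalizations, weights and probe set choices. None of the 25 differences changed sign under those settings, and 13 did without some animal, 11 of them without ICD 1. Their ranges were -0.24 to 0.20 for Hspa1a, -0.23 to 0.24, -0.22 to 0.24 and -0.23 to 0.23 for Hspa1b 1427126_at, 1427127_x_at and 1452318_a_at, and -0.34 to 0.10, -0.18 to 0.12 and -0.19 to 0.096 for Hspa8 1420622_a_at, 1420623_x_at and 1455789_x_at. They were -0.31 to 0.026 for Dnaja1 1416288_at, -0.49 to 0.0036 for Hsph1 1423566_a_at, -0.045 to 0.0065 for Hspd1, and -0.082 to 0.024, -0.091 to 0.078 and -0.14 to 0.071 for Hsp90aa1 1433251_at, 1437497_a_at and 1441827_x_at. Dnaja4 ranged from -0.43 to 0.026 and Serpinh1 from -0.20 to 0.15. The correlation of Hspd1 with Hspa1b ranged from -0.72 to 0.18, and that of Hspa8 from 0.97 to 0.99. The 4 relations with adjusted p under 0.05 lost it without ICD 1, ICD 2, WT 1, WT 2 or WT 3, where 5 animals remain.

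With the replicate number as a block, 0 probe sets passed and 2 of the 25 had an unadjusted p under 0.05. Same-numbered animals did not deviate together (r = -0.0057, 0.0077 and -0.047 over all probe sets), and r for unlike-numbered animals ran from -0.062 to 0.076. The labels give no litter or day for a number, so these values cannot tell whether the numbers pair the animals. The confidence intervals of the 25 probe sets reached a median of 0.33 to either side. This describes the precision before adjustment and is not the smallest difference that the adjusted threshold could find. Hspa8 1431182_at, at 0.68, did not pass that threshold (limma adjusted p = 0.6).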
